A study of Rattus norvegicus with 90 samples.

Results

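The response of the maternal rat liver to 30 mg/kg/d of Nafion byproduct 2 (NBP2) late in pregnancy was taken from 6 of the 90 libraries of the series: 3 dams at 30 mg/kg/d and 3 control dams. NBP2 is a polyfluorinated ether sulfonic acid, one of the per- and polyfluoroalkyl substances, and reaches water as a byproduct of fluoropolymer production. The members were chosen by their titles, as maternal livers of gestation day (GD) 21 at these doses, and all carry the same study block number. Both groups were time-mated Sprague-Dawley dams (Crl:CD(SD)), about 90 days old on purchase, that were ranked by weight and assigned to dose at random. The treated dams received NBP2 by mouth from GD17 to GD21, and livers were taken 2 to 4 h after the last dose, with the order of necropsy spread over the doses. The controls are labelled only as dose 0, so their vehicle is not known here, and the titles say GD21 where the age entry and the design text say GD20. Each library came from a liver subsample of 1 dam. Levels were measured by TempO-Seq, in which paired probes anneal to a transcript, are ligated and are counted by sequencing, and highly abundant transcripts were attenuated equally in every sample. With 3 dams a group, and dosing that ended hours before sampling, the comparison describes a short exposure at a single time. Doses of 1, 3 and 10 mg/kg/d (3 dams each) served to estimate the spread.

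The liver senses foreign and fatty compounds through ligand-activated nuclear receptors. The constitutive androstane receptor (CAR, gene Nr1i3) and the pregnane X receptor (PXR, gene Nr1i2) turn on cytochromes P450 of the 2B, 2C and 3A families, conjugating enzymes and transporters, the classical response of rat liver to phenobarbital and to pregnenolone carbonitrile. Peroxisome proliferator-activated receptor alpha (PPAR-alpha, gene Ppara) turns on fatty acid transport and peroxisomal and mitochondrial beta-oxidation, and is the receptor most often tied to perfluorinated acids in rodent liver. These receptors bind paired half-sites close to AGGTCA or AGTTCA, in promoters or in enhancers that can lie far upstream.

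The promoters of 3 of the genes that rose most are shown because the genes moved together and because the transcripts of close copies are hard to tell apart. The sequences are RefSeq's for GRCr8 and cover the 250 bases before the annotated start, 5′ to 3′ on the gene's strand. For Cyp2b1 (chr1:90645869-90646118, plus strand) and Cyp2b2 (chr1:90722031-90722280, plus strand), capitals mark the 8 bases that differ among 233 aligned ones, of which 225 (96.6%) are identical. For Cyp3a23/3a1 (chr12:14398804-14399053, minus strand), capitals mark a direct repeat of the half-site AGTTCA with 3 bases between the copies (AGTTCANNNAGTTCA), found on the opposite strand from 144 to 130 bases before the start.
Cyp2b1: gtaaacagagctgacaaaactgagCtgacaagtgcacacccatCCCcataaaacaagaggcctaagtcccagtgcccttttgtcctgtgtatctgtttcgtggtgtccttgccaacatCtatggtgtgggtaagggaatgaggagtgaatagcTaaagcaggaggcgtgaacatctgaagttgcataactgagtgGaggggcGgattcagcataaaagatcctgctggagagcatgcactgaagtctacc
Cyp2b2: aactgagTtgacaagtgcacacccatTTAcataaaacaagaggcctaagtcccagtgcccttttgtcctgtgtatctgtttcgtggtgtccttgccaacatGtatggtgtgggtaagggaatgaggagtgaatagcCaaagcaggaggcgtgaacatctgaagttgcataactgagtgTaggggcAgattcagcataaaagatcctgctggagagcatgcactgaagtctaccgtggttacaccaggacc
Cyp3a23/3a1: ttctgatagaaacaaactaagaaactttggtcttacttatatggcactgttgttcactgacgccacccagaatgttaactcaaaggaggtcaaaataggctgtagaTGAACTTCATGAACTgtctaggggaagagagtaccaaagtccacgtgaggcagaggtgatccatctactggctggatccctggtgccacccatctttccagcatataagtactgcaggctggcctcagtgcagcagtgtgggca
Direct repeats of AGGTCA or AGTTCA, in any combination, were searched on both strands with spacers of 1, 3, 4 or 5 bases, and everted repeats with a spacer of 6. A spacer of 3 was found in 13 of 33469 RefSeq promoters (0.0388%), a spacer of 1 in 27 (0.0807%), a spacer of 4 in 5 (0.0149%), a spacer of 5 in 10 (0.0299%) and the everted repeat in 1 (0.00299%). Among the 24 genes called below that have an entry, the one match was that of Cyp3a23/3a1. The deposited table uses rn6, in which it places Cyp2b2 at chromosome 1, 83103925 to 83119194, and Cyp3a23/3a1 at chromosome 12, 11655402 to 11733137, but Cyp2b1 at chromosome 7, 99142450 to 99181784, where GRCr8 has it on chromosome 1.

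The 6 libraries held 5096140 to 6490851 counts, and the 15 maternal GD21 libraries 3547283 to 6490851. Of 20833 genes in the table, 9238 passed the filter on low counts and were tested. The libraries had the profile of liver: the 14 hepatocyte markers summed to 41500 to 56360 CPM (counts scaled to a common library total) in controls and 35700 to 44450 CPM in treated dams (exact two-sided permutation test, p = 0.2, where 0.1 is the smallest p possible). None of the other cell type lists separated the groups except the placenta and yolk sac list, which summed to 0 in controls and 0.376 to 0.648 CPM in treated dams (exact permutation p = 0.1). That sum was near the floor and led by Cited1. Of the 9 placenta and yolk sac markers, 4 were at 0 in all 6 libraries and all 9 were below the filter on low counts. Endothelial markers summed to 360 to 382 CPM against 367 to 390 CPM and macrophage markers to 883 to 1396 CPM against 792 to 1011 CPM. The 16 pancreas and muscle markers summed to 595 to 1396 CPM against 673 to 2486 CPM, highest in dam 2141 and led by Cpa1, with 8 of them, Prss1, Cela1, Pnlip, Ctrb1, Ins2, Acta1, Ckm and Myl1, at 0 in all 6 libraries. The part of these levels in the results was not tested, and in bulk liver fewer cells of a type and less RNA per cell cannot be told apart. One dam outside the comparison, at 1 mg/kg/d, stood apart: its profile correlated at 0.946 with the median of the others, where the other 14 lay between 0.975 and 0.985.

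At 30 mg/kg/d the maternal liver carried far more transcript of some inducible cytochromes P450 and of some fatty acid oxidation enzymes. Few falls passed the threshold given below. Cyp2b1 and Cyp2b2 rose by 5.91 and 5.74 on the log2 scale, Cyp3a23/3a1 by 4.65 and the acyl-CoA thioesterase Acot1 by 4.96. Of 9238 genes tested, 31 (0.336%) passed an adjusted p of 0.05 in edgeR's quasi-likelihood test with Benjamini-Hochberg adjustment: 28 higher (0.303%) and 3 lower (0.0325%). The median log2 fold change of all tested genes was -0.000418, and 672 genes had an unadjusted p under 0.05. At least a 2-fold rise was seen in 27 of the 28 higher genes, while 189 tested genes had a log2 fold change of 1 or more and 138 of -1 or less whatever their p. In each of the 31 called genes every treated dam lay beyond every control dam, an ordering found upward in 607 tested genes (6.57%) and downward in 674 (7.3%). The count depended on which dam was in the fit: leaving out a control dam gave 12 (dam 2129), 13 (dam 2130) or 24 (dam 2131) calls, and leaving out a treated dam gave 55 (dam 2141), 10 (dam 2142) or 15 (dam 2143). Called in all 6 of these fits were 10 genes, among them Cyp2b1, Cyp2b2, AABR07035374.1, Dhrs7l1, Cyp3a23/3a1, Ehhadh, Aldh1a1, Cyp4a1 and Ephx1. Eci1, Gsta2 and Ugt1a6 were called in 4 of the 6, and the other 18 in at most 2. Fitted from the 6 libraries alone, 9 of the 31 lost the call: Acot1, Acot2, Nr1i3, Cyp2c6v1, Hsdl2, LOC103693189, Pacsin1, Tex36 and Gnpnat1.

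**Figure D1:**
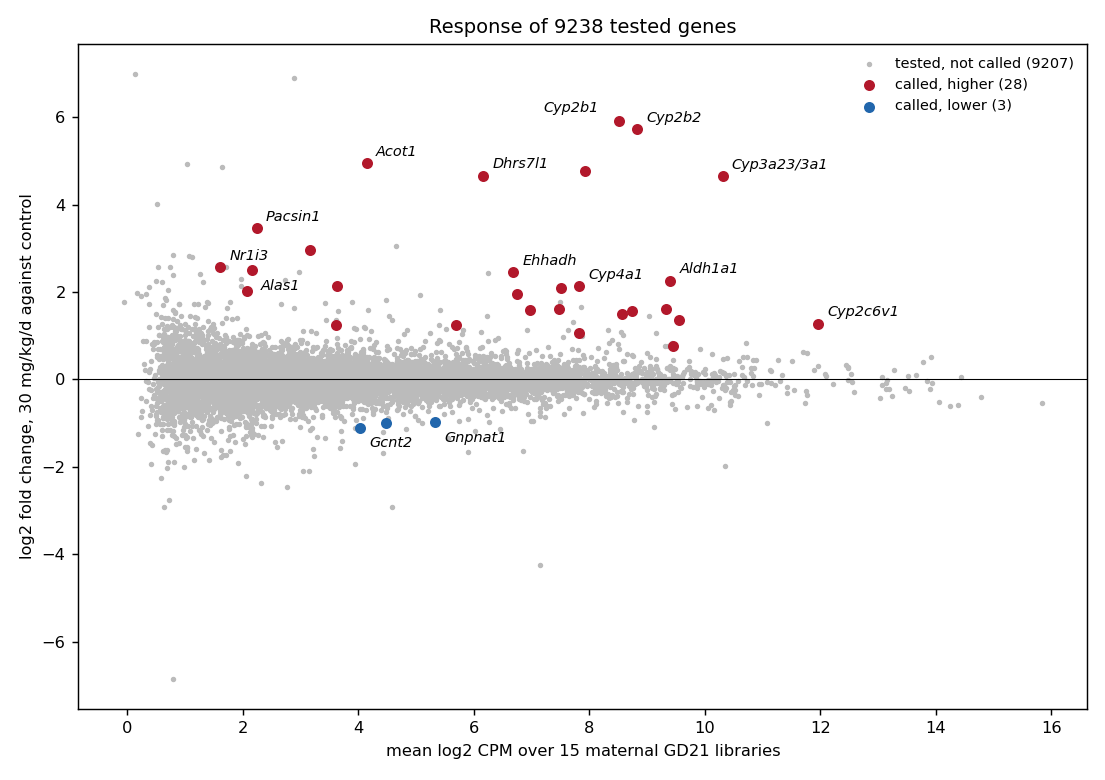
Each point is 1 of the 9238 genes tested, by its mean log2 CPM over the 15 maternal GD21 libraries (x) and its log2 fold change at 30 mg/kg/d against control (y). Red points are the 28 genes called higher, blue the 3 called lower and grey the rest. The CYP2B genes lie at the top right of the cloud, and the 3 falls are close to -1.

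Among the called genes, Cyp2b1 and Cyp2b2, cytochromes P450 of the CAR and PXR type, had the largest fold changes. Cyp2b1, which oxidises many drugs and steroids, stood at 25.0, 20.3 and 19.7 CPM in the 3 control dams and at 525, 1719 and 1664 CPM in the 3 treated dams. The groups were far apart, and the lowest treated value belonged to dam 2141 (log2 fold change 5.91 ± 0.39 SE, adjusted p = 6.72e-07, n = 3 and 3). Its close relative Cyp2b2 was at 31.0, 12.6 and 41.7 CPM in controls and at 711, 1992 and 1848 CPM after treatment, a rise of 5.74 ± 0.56 (adjusted p = 7.22e-05). Cyp3a23/3a1, the main inducible rat CYP3A, went from 165, 158 and 187 CPM to 1533, 6186 and 5086 CPM, with the controls close together and the treated dams widely spread (4.65 ± 0.47, adjusted p = 7.53e-05). The unnamed gene AABR07035374.1, whose model overlaps that of Cyp3a23/3a1 on the same strand, followed with 31.8, 25.3 and 29.4 CPM against 313, 1160 and 884 CPM (4.77 ± 0.38, adjusted p = 5.94e-06). For Cyp2b1, Cyp2b2, Cyp3a23/3a1 and AABR07035374.1 the estimated counts were not whole in any of the 15 libraries, so reads shared with near-identical copies may have been divided, and the split between members of a family is uncertain. Cyp2c6v1, a CYP2C enzyme already abundant in control liver, rose less: 2803, 2847 and 2527 CPM became 4242, 8004 and 7579 CPM (1.28 ± 0.21, adjusted p = 0.00918). Cyp2b3, a relative of the inducible CYP2B genes, was the one tested list member with a negative fold change (-0.58 ± 0.15, adjusted p = 0.188).

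Other enzymes that modify and conjugate foreign compounds rose with them. Dhrs7l1, a short-chain dehydrogenase/reductase, was at 5.57, 12.4 and 5.29 CPM in controls and reached 191, 232 and 170 CPM, a change of 4.67 ± 0.55 (adjusted p = 0.000359). In contrast to the P450 genes, its 3 treated dams were close together. Microsomal epoxide hydrolase, Ephx1, was at 110, 99.9 and 86.5 CPM in controls and 254, 446 and 554 CPM in treated dams (2.08 ± 0.24, adjusted p = 0.000359). Aldh1a1, which oxidises retinaldehyde and other aldehydes, went from 269, 365 and 408 CPM to 1060, 2018 and 1918 CPM (2.26 ± 0.23, adjusted p = 9.46e-05). In both genes the lowest treated dam was more than 2-fold above the highest control. The glucuronosyltransferases Ugt1a6 (1.49 ± 0.23, adjusted p = 0.00672) and Ugt2b10 (1.61 ± 0.28, adjusted p = 0.0192) and the glutathione transferases Gsta2 (1.57 ± 0.25, adjusted p = 0.00841) and Gsta5 (1.35 ± 0.25, adjusted p = 0.0235) made up the 4 called members of the 26 conjugation enzymes tested, none of which fell. Gsta2 stood at 289, 220 and 238 CPM against 692, 810 and 716 CPM. Ugt1a6 is also on the lists of aryl hydrocarbon receptor targets (1 of 5 tested called) and of thyroid hormone handling (1 of 13), and Gsta2 on that of NRF2 targets (1 of 29); each was the only called member there. The estimated counts of Gsta2 and Gsta5 were not whole in any library, so the same uncertainty about close copies holds. It extends to other called genes: 15 of the 31 had counts that were not whole in some of the 15 libraries, in every one for LOC103693189, in 93.3% for Slco1a4, in 80% for Ephx1, Ugt2b10 and AABR07021930.1, in 60% for Eci1, in 53.3% for Ugt1a6, in 46.7% for Cyp2c6v1 and in 6.67% for Gcnt2.

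Genes for haem supply, uptake and the receptor itself also changed. Alas1, the first and rate-limiting enzyme of haem synthesis, which P450 enzymes need, was measured at 1.24, 1.77 and 1.65 CPM in controls and 5.83, 11.9 and 9.07 CPM in treated dams (2.50 ± 0.46, adjusted p = 0.0235). It was the only one of 24 tested genes of haem synthesis and iron that passed. Slco1a4, an organic anion transporter of the hepatocyte membrane, rose from 69.6, 137 and 122 CPM to 289, 433 and 279 CPM (1.61 ± 0.29, adjusted p = 0.0235) and was the only called one of 16 bile acid synthesis and transport genes. Nr1i3, which encodes CAR, was low in controls, at 1.44, 0.53 and 1.32 CPM, and reached 3.57, 7.59 and 8.59 CPM (2.57 ± 0.45, adjusted p = 0.0206). Of the 24 nuclear receptors and cofactors tested it alone passed, but it was called in 1 of the 6 fits that left out a dam (adjusted p up to 0.135) and not in the 6 libraries alone (adjusted p = 0.0609). Nr1i2, for PXR, had a log2 fold change of 0.26 ± 0.13 (adjusted p = 0.687), and Ppara one of 0.25 (adjusted p = 0.957). Tsku, a secreted leucine-rich repeat protein on the CAR and PXR list, was at 82.0, 89.1 and 40.9 CPM in controls and 261, 206 and 173 CPM in treated dams (1.59 ± 0.31, adjusted p = 0.0370). Of the 6 fits that left out a dam, Alas1 was called in 1, Slco1a4 in 2 and Tsku in 0, while each kept its call in the 6 libraries alone.

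Across the CAR and PXR list, 13 of 25 tested genes rose, none fell and 12 did not pass, with a median log2 fold change of 1.59 beside -0.000418 over all genes. Another 3 members were below the filter. Positive values were found in 24 of the 25. Over all tested genes 0.303% were called higher, and the list was chosen with results of these data known. Members that did not pass included Gadd45b (2.83 ± 0.79, adjusted p = 0.210), Akr7a3 (2.41 ± 0.68, adjusted p = 0.213), Ces2a (1.32 ± 0.42, adjusted p = 0.311), Cyp3a9 (1.13 ± 0.38, adjusted p = 0.387) and the P450 reductase gene Por (0.85 ± 0.50, adjusted p = 0.813).

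**Figure D2:**
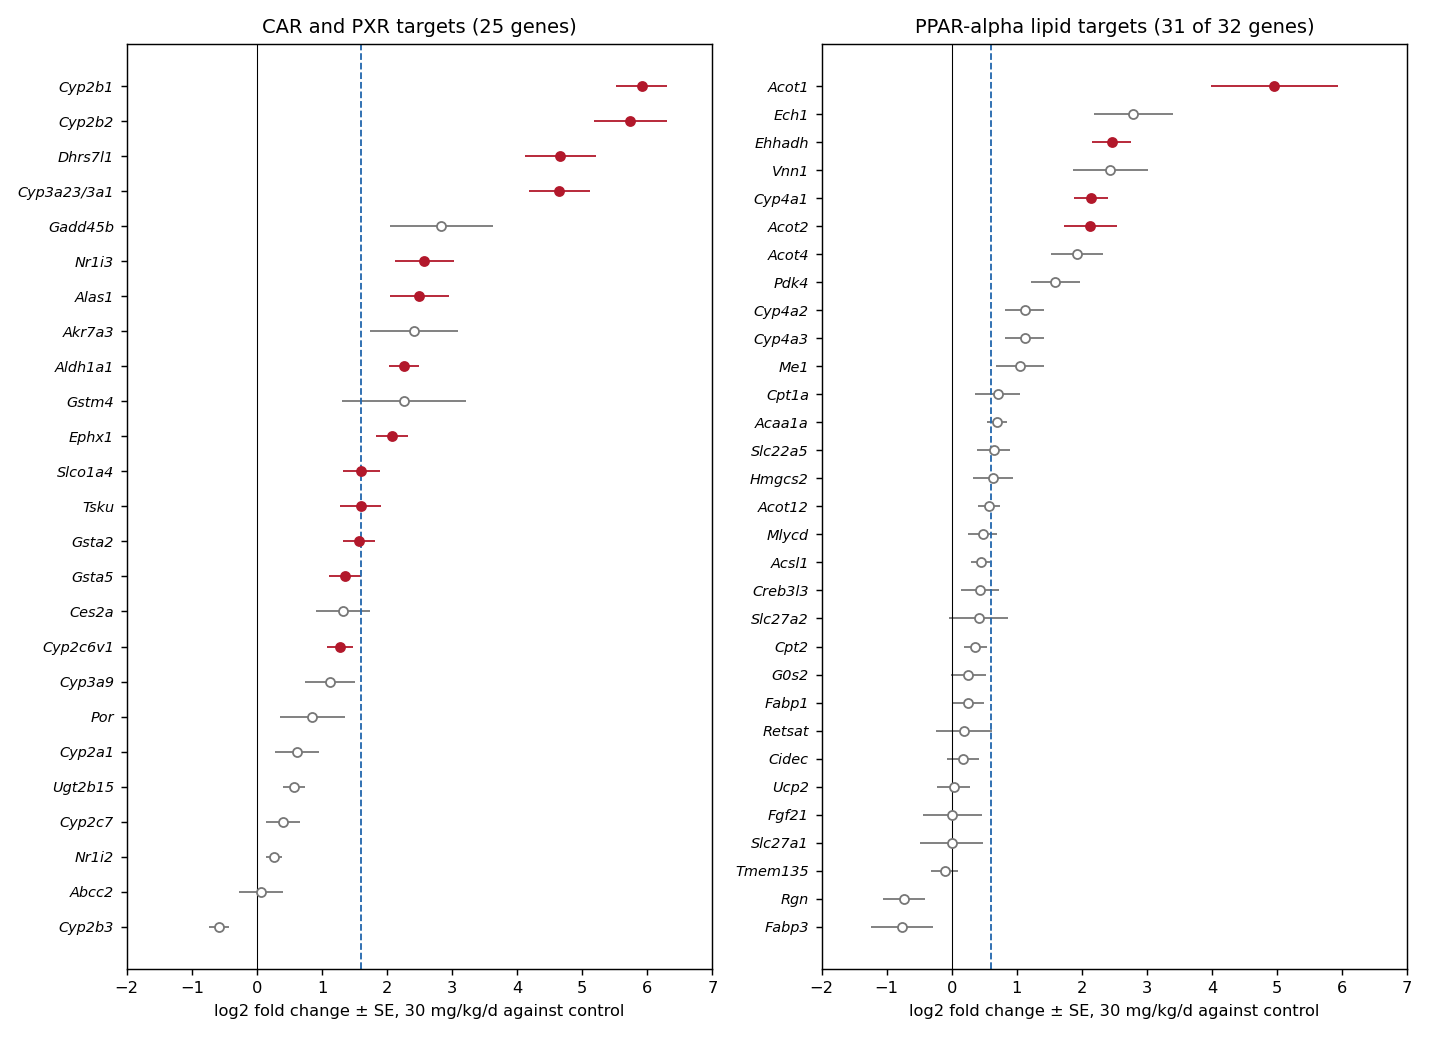
Log2 fold change at 30 mg/kg/d against control (x, with its standard error) of each tested member of the CAR and PXR list (left, 25 genes) and of the PPAR-alpha lipid list (right, 31 of its 32 genes). Filled red points passed an adjusted p of 0.05, open points did not, and the dashed line is the median of the whole list, 1.59 on the left and 0.601 on the right.

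Fatty acid oxidation genes made up the other large group. Acot1, which frees fatty acids from coenzyme A in the cytosol, was at 0, 0 and 6.62 CPM in controls and at 31.4, 46.4 and 142 CPM in treated dams. The groups did not overlap, but the fold change of 4.96 ± 0.98 (adjusted p = 0.0370) rests largely on the control dam with signal: it ranged from 4.05 to 11.6 when dams were left out in turn, and DESeq2 gave an adjusted p of 0.139. Acot2, its mitochondrial relative, rose from 2.68, 4.24 and 10.1 CPM to 19.9, 28.5 and 27.4 CPM (2.13 ± 0.41, adjusted p = 0.0321). The file puts both on rn6 chromosome 6, Acot2 at 107460668 to 107467488 and Acot1 at 107485249 to 107493799. Both overlap the model of LOC108348062 on the same strand, whose own log2 fold change was 0.16 (adjusted p = 0.899). As placed, that model also overlaps the distant genes Lclat1 (24377327 to 24515738) and Dhrs7l1 (95387718 to 95502846). The overlap is therefore not particular to Acot1 and Acot2. Ehhadh, the peroxisomal bifunctional enzyme, was at 34.7, 44.6 and 70.0 CPM in controls and 168, 350 and 303 CPM in treated dams (2.46 ± 0.30, adjusted p = 0.000491). Cyp4a1, which hydroxylates fatty acids at their far end, went from 94.8, 119 and 147 CPM to 414, 510 and 667 CPM (2.14 ± 0.26, adjusted p = 0.000491). For Ehhadh and Cyp4a1 the controls varied little beside the distance between the groups. Eci1, a mitochondrial enoyl-CoA isomerase for unsaturated fatty acids, was at 33.4, 74.6 and 90.8 CPM against 203, 299 and 266 CPM (1.95 ± 0.32, adjusted p = 0.0103).

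On the PPAR-alpha lipid list, 5 of 32 tested genes rose, Acot1, Acot2, Ehhadh and Cyp4a1 among them, none fell and 27 did not pass. Over all tested genes 0.303% were called higher and 0.0325% lower, and the lists were chosen with results of these data known. The median log2 fold change of the PPAR-alpha list was 0.601, beside -0.000418 over all tested genes, and 28 of the 32 values were positive. Several well-known targets did not pass in the main fit. Vnn1, a pantetheinase, had 22.9, 16.4 and 73.1 CPM in controls and 65.2, 252 and 294 CPM in treated dams, so that the groups overlapped (2.44 ± 0.57, adjusted p = 0.111). It passed by DESeq2 (adjusted p = 0.0283) and in 2 of the 6 fits that left out a dam. It did not pass in the 6 libraries alone (adjusted p = 0.219). In the joint edgeR fit of both ages, given below, Vnn1 had an adjusted p of 0.00182 in these GD21 dams. Pdk4, which restrains glucose oxidation, gave 1.59 ± 0.38 (adjusted p = 0.123), and Cpt1a, the gate for fatty acids into mitochondria, gave 0.71 ± 0.34 (adjusted p = 0.693). Pdk4 passed by DESeq2 (adjusted p = 0.00704) and in the 6 libraries alone (adjusted p = 0.0440), but in 0 of the 6 fits that left out a dam. Fabp1, the abundant liver fatty acid binding protein, stood at 5052, 5643 and 5667 CPM against 6846, 7807 and 4896 CPM, with overlapping groups and a log2 fold change of 0.26 ± 0.23 (adjusted p = 0.909). Of 40 peroxisomal genes tested, 2 passed, Ehhadh among them, 32 had positive values and the median was 0.235. Of 26 mitochondrial beta-oxidation genes, Eci1 and Acot2 passed, 21 were positive and the median was 0.381. The genes just outside the threshold included the peroxisomal genes Acot4 (1.93, adjusted p = 0.0581), Ech1 (2.79, adjusted p = 0.0766) and Acaa1a (0.70, adjusted p = 0.0852), while Gpd1l (adjusted p = 0.0415) and Gnpnat1 (adjusted p = 0.0427) lay just inside it.

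The 3 genes that fell changed far less than the CYP2B and CYP3A genes. Gcnt2, which adds branches to cell-surface glycans, was at 23.9, 18.9 and 27.0 CPM in controls and 10.1, 10.2 and 12.2 CPM in treated dams (-1.10 ± 0.20, adjusted p = 0.0208). Lclat1, a lysocardiolipin acyltransferase, went from 24.2, 32.9 and 28.8 CPM to 15.04, 14.0 and 13.9 CPM, or 28.6 ± 4.4 against 14.3 ± 0.63 CPM (mean ± SD, n = 3 each, adjusted p = 0.0297 in edgeR's quasi-likelihood test). Gnpnat1, an enzyme on the way to UDP-N-acetylglucosamine, went from 67.1, 48.6 and 40.4 CPM to 25.9, 31.2 and 21.9 CPM (-0.98 ± 0.20, adjusted p = 0.0427). The treated dams of Gcnt2 and Lclat1 were within a few CPM of each other. At 1, 3 and 10 mg/kg/d, against the same controls, Gcnt2 had log2 fold changes of -0.78, -0.28 and -0.83. Lclat1 had -0.41, -0.41 and -0.29 there, and Gnpnat1 -0.53, -0.27 and -0.30. None of these passed. For Gcnt2 all 3 dams at 1 mg/kg/d (10.3 to 16.5 CPM) and all 3 at 10 mg/kg/d (11.6 to 14.4 CPM) lay below every control. The 10.3 CPM was in dam 2132, the 1 mg/kg/d dam whose profile stood apart. For Lclat1 all 3 dams at 3 mg/kg/d (20.9 to 22.9 CPM) lay below every control. At their other lower doses Gcnt2 and Lclat1 overlapped the controls, as did Gnpnat1 at each lower dose. Of the 6 fits that left out a dam, Lclat1 was called in 0 and Gcnt2 and Gnpnat1 in 1 each, and Gnpnat1 was not called in the 6 libraries alone (adjusted p = 0.131). The number of falls ranged from 0 to 9 over the fits that left out a dam.

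Among the rises outside every list, Pacsin1, an adaptor of endocytosis known mainly from neurons, was near the detection limit in controls, at 0.62, 0.35 and 2.32 CPM, against 3.01, 11.6 and 23.3 CPM (3.46 ± 0.65, adjusted p = 0.0301). Its fold change ranged from 2.67 to 4.66 when dams were left out in turn, with 2 calls in these 6 fits, and it was not called in the 6 libraries alone (adjusted p = 0.155). Hsdl2, a peroxisomal protein of the short-chain dehydrogenase family, went from 33.6, 32.5 and 47.1 CPM to 62.0, 90.4 and 117 CPM (1.25 ± 0.24, adjusted p = 0.0345). Gpd1l, related to glycerol-3-phosphate dehydrogenase, gave 1.23 ± 0.25 (adjusted p = 0.0415) with its 6 values between 7.64 and 21.9 CPM. The unnamed genes AABR07021930.1 (2.95 ± 0.54, adjusted p = 0.0235) and LOC103693189 (0.76 ± 0.15, adjusted p = 0.0364) and Tex36 (2.03 ± 0.39, adjusted p = 0.0345) completed the 31. In all, 21 of the 31 called genes (67.7%) belonged to at least 1 of the 26 biology lists, as did 531 of the 9238 tested genes (5.75%); the lists were chosen with results of these data known.

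No member of 15 further lists passed, among them those of ketogenesis, fatty acid and cholesterol synthesis, lipoproteins, gluconeogenesis, urea cycle, cell cycle, p53, the stress response of the endoplasmic reticulum and mitochondrial respiration. The 34 acute phase and secreted liver proteins had a median log2 fold change of -0.187 with 7 positive values, and the 35 complement and coagulation genes a median of -0.186 with 8 positive, while no single member passed. As a log2 ratio to the control mean with 1 CPM added, the acute phase median by dam was -0.19 to -0.177 at 30 mg/kg/d. At 1, 3 and 10 mg/kg/d it was -0.215 to -0.0934, -0.365 to 0.0153 and -0.118 to 0.0322. The complement median was -0.171 to -0.122 at 30 mg/kg/d. At the lower doses it was -0.114 to 0.0295, -0.281 to -0.00308 and -0.202 to 0.0483. Some dams at lower doses were thus as low on both lists. Dio1, which activates thyroid hormone, was at 91.0, 67.2 and 51.6 CPM in controls and 10.9 to 40.4 CPM in treated dams, without overlap (-1.67 ± 0.37, adjusted p = 0.0832). Nr1d1, the clock repressor REV-ERB-alpha, was at 3.51, 5.13 and 13.7 CPM against 36.5, 51.9 and 99.8 CPM (3.05 ± 0.69, adjusted p = 0.0989). Neither passed, and both were picked out after their values were seen. Pck1, for gluconeogenesis, spread from 311 to 1205 CPM among controls and from 521 to 1316 CPM among treated dams (0.42 ± 0.51, adjusted p = 0.948). Igfbp1, an insulin-repressed binding protein, spread from 24.0 to 49.0 CPM and from 12.4 to 198 CPM (1.45 ± 0.63, adjusted p = 0.617), and Nqo1, a standard NRF2 target, gave 0.54 ± 0.32 (adjusted p = 0.813). Cyp1a1, the marker gene of the aryl hydrocarbon receptor, and Cyp7a1, the rate-limiting enzyme of bile acid synthesis, were below the filter, with at most 1.99 and 1.24 CPM in any of the 6 dams.

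The treated dams did not respond to the same extent. Dam 2141 had the lowest of the 3 treated values in 25 of the 28 genes called higher (89.3%), against 3179 of 9238 tested genes (34.4%). The median of the 25 CAR and PXR genes, as a log2 ratio to the control mean with 1 CPM added, was 1.03 in dam 2141, 1.53 in dam 2142 and 1.51 in dam 2143, and lay between -0.109 and 0.0403 in the controls. For the 32 PPAR-alpha genes the treated values were 0.411, 0.725 and 0.73, and the controls lay at -0.159, -0.0921 and 0.125. The highest of these controls, dam 2131, had the highest control value in 19 of the 32 genes (59.4%, against 33.5% of all genes), and in 7 of the 25 CAR and PXR genes (28%). For both lists each of the 3 treated dams was above each control. The library of dam 2141 had 5133455 counts, the fewest of the treated ones. It also held more of the pancreas and muscle markers (2486 CPM, beside 672.8 and 859.2 CPM in dams 2142 and 2143) and of the adipocyte markers (96.0 beside 20.7 and 13.6 CPM), and its hepatocyte markers had the lowest sum of the 6 (35700 CPM). The pancreas and muscle sum was led by Cpa1. The adipocyte sum was led by Ca3, with Plin1, Retn and Lipe at 0 in all 6 libraries. The part of these values in the lower response of dam 2141 was not tested.

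**Figure D3:**
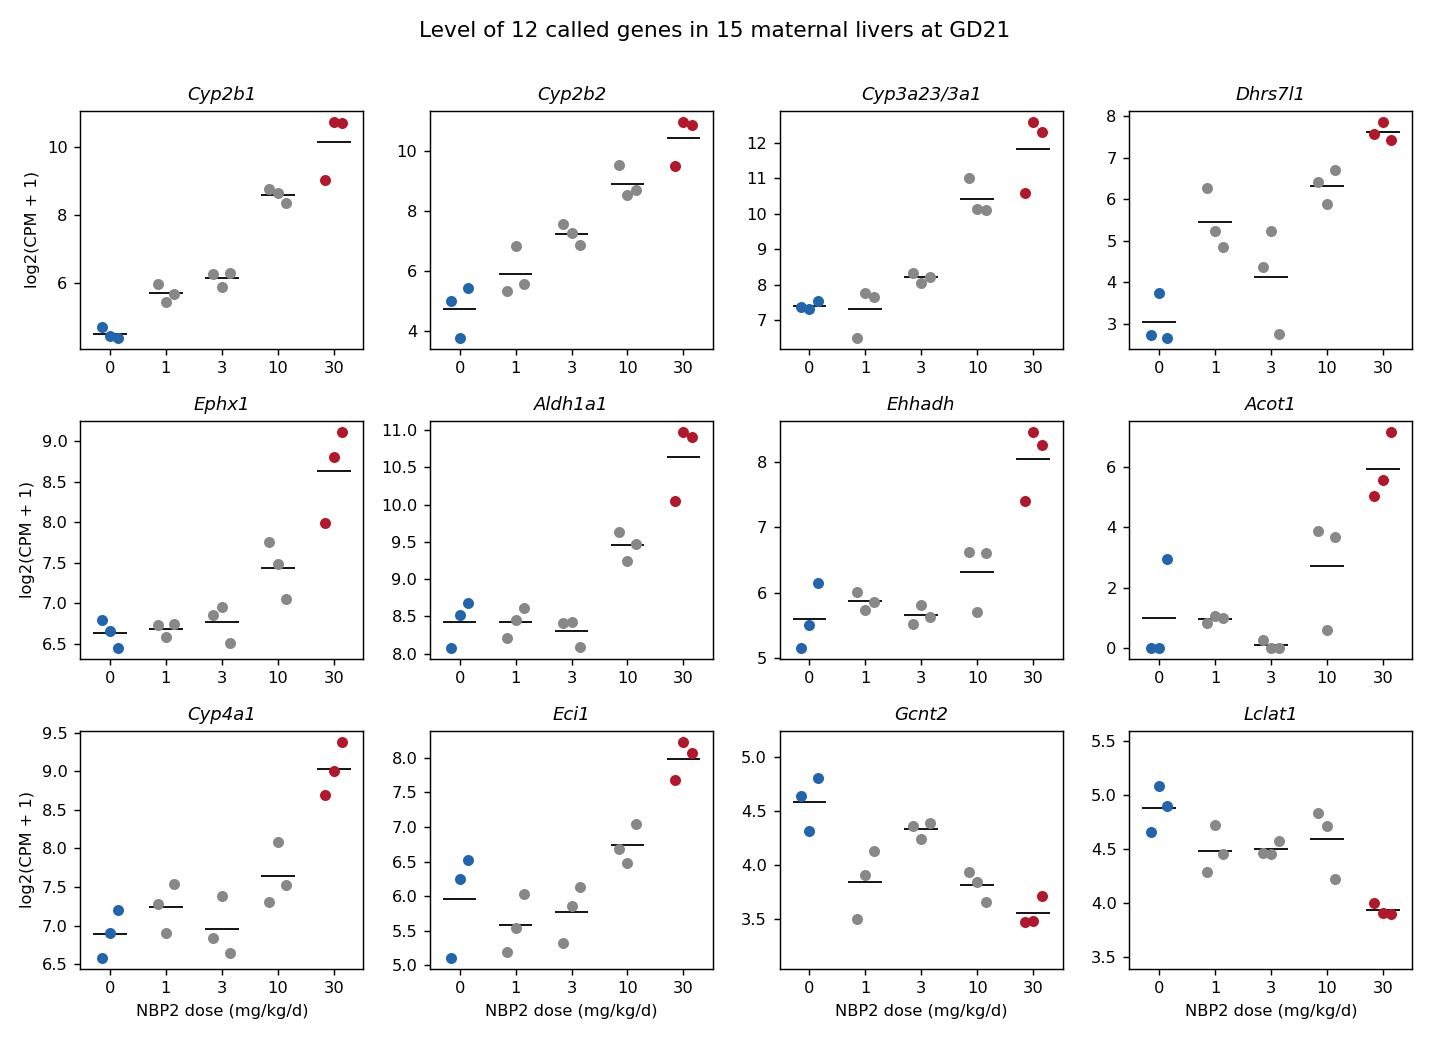
Level of 12 called genes in the 15 maternal livers at GD21, as log2(CPM + 1) (y), by NBP2 dose in mg/kg/d (x, categories). Each point is 1 dam, blue for controls, red for 30 mg/kg/d and grey for the doses between, and the bar is the mean of the 3 dams. In all 12 panels red and blue points do not overlap, and Cyp2b1 was at 525 to 1719 CPM in the red group.

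At the lower doses, which were compared with the same 3 controls, fewer genes passed: 5 at 10 mg/kg/d (0.0541%; 300 at an unadjusted p under 0.05), 0 at 3 mg/kg/d (366 unadjusted) and 0 at 1 mg/kg/d (806 unadjusted) by edgeR's quasi-likelihood test. Cyp2b1 was at 434, 402 and 326 CPM at 10 mg/kg/d, a rise of 4.16 ± 0.36 (adjusted p = 3.72e-05), and at 57.0 to 76.7 CPM at 3 mg/kg/d, above all controls but not past the threshold (1.69, adjusted p = 0.499). At 1 mg/kg/d it was at 42.1 to 61.8 CPM, also above all controls and not past the threshold (1.24, adjusted p = 0.547), with the highest value in dam 2132. The other 4 genes called at 10 mg/kg/d were Cyp2b2 (4.14, adjusted p = 0.00219), Dhrs7l1 (3.39, adjusted p = 0.0161), AABR07035374.1 (3.35, adjusted p = 0.000367) and Cyp3a23/3a1 (3.08, adjusted p = 0.00629). Cyp2b2 (115 to 188 CPM), AABR07035374.1 (62.8 to 70.7 CPM) and Cyp3a23/3a1 (266 to 325 CPM) also lay above all controls at 3 mg/kg/d without passing. Each of them overlapped the controls at 1 mg/kg/d. Dhrs7l1 did not follow the dose below that. It was at 76.4, 36.8 and 28.0 CPM at 1 mg/kg/d, above all controls but not past the threshold (2.60, adjusted p = 0.408). The 76.4 CPM was in dam 2132, whose profile stood apart. At 3 mg/kg/d Dhrs7l1 was at 19.6, 36.6 and 5.72 CPM. Of the 5 genes called at 10 mg/kg/d, all but AABR07035374.1 are on the CAR and PXR list, which holds 25 of the 9238 tested genes. AABR07035374.1 overlaps Cyp3a23/3a1 on the same strand, so its call may not be a separate one. The list was chosen with results of these data known. Of the fatty acid oxidation genes at 10 mg/kg/d, Ehhadh gave 0.71, Cyp4a1 0.76 and Acot2 1.25, none past the threshold. The median of the CAR and PXR list was 0.501, 0.842 and 0.719 in the 3 dams at 10 mg/kg/d, between the values at 0 and at 30 mg/kg/d. For Aldh1a1 the 3 dams at 10 mg/kg/d (605 to 796 CPM) lay above the controls and below all dams at 30 mg/kg/d, with a log2 fold change of 1.02 (adjusted p = 0.578).

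The same dose was also given to other dams from GD14 to GD18 and their livers taken at GD18 (6 controls and 4 treated, in 2 study blocks that differ from that of GD21). In a fit of the 45 maternal libraries over 14621 genes, 71 genes passed at GD18 (0.486%), and all 31 genes called at GD21 had the same sign there. In this fit 39 genes passed at GD21 (0.267%), among them 27 of the 31; Gcnt2, Gsta2, Tsku and LOC103693189 did not. At GD18 24 of the 31 passed, and the 7 that did not were Alas1, Cyp4a1, Pacsin1, Tsku, LOC103693189, Lclat1 and Gnpnat1. Passing at both ages were 22, and Tsku (adjusted p = 0.166 at GD21 and 0.0557 at GD18) and LOC103693189 (0.0719 and 0.361) passed at neither. For no gene did the difference between the responses at the 2 ages pass (0 of 14621 by edgeR, 624 at an unadjusted p under 0.05, and 0 by DESeq2), so the ages were not shown to differ. Cyp4a1 came closest among the called genes: its log2 fold change was 2.15 at GD21 and 0.80 at GD18, a difference of 1.35 ± 0.35 with an unadjusted p of 0.000426 and an adjusted p of 1. On the scale of this fit it was at 107 to 165 CPM in controls and 463 to 752 CPM in treated dams at GD21, and at 159 to 207 CPM and 223 to 466 CPM at GD18. Alas1 (difference 1.51 ± 0.51) and Pacsin1 (2.07 ± 0.68) were also larger at GD21, both with an adjusted p of 1. Cyp2b2 was uneven at GD18, where the controls were at 0.299, 1.77 and 0.140 CPM in block 140 and 10.6, 20.1 and 22.9 CPM in block 143, and 1 treated dam was at 27.8 CPM beside 599 to 1574 CPM in the other 3. Outside the called genes, small p of the difference belonged to Clasp2 (0.92 ± 0.22, unadjusted p = 0.00019), Zfp644 and Cyp4a2 and, among those lower at GD21, to Dennd6a, Gss, Litaf, AC132539.1 and Prr22, all with an adjusted p of 1.

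Fetal livers of the same 3 treated and 3 control dams were taken at GD21; the labels do not say how many fetuses a library holds or their sex. In a fit of all 30 GD21 libraries, maternal and fetal, over 10794 genes, 16 genes passed in the fetal livers (0.148%) and 11 in the dams (0.102%). Of the 31 genes called from the maternal libraries alone, 10 passed in the dams of this fit, 26 had the same sign in the fetuses and 7 passed there, among them Cyp2b1, Acot1, Acot2, Ehhadh, Aldh1a1 and Cyp4a1. Cyp2b1, Acot1, Ehhadh and Aldh1a1 passed in both. The 5 of opposite sign, none of which passed in the fetuses, were Dhrs7l1, Gsta2, Gsta5, Slco1a4 and Ugt1a6. The response itself differed between dam and fetus for 4 genes (0.0371%; 229 at an unadjusted p under 0.05). Ephx1 rose by 2.09 in the dams and had a log2 fold change of 0.29 in the fetuses (difference 1.80 ± 0.33, adjusted p = 0.0355). Gsta2 had 1.58 in the dams and -1.52 in the fetuses (difference 3.09 ± 0.58, adjusted p = 0.0371), and the glutathione transferase Gstm7 1.29 and -0.93 (difference 2.22 ± 0.38, adjusted p = 0.0181). Fabp1 differed the other way, with 0.27 in the dams and 3.09 in the fetuses (difference -2.82 ± 0.44, adjusted p = 0.00880). Its fetal levels on this fit's scale were 189, 235 and 296 CPM in controls and 1060, 2598 and 2453 CPM at 30 mg/kg/d, while the dams had 5892, 6551 and 6596 CPM and 8024, 9167 and 5695 CPM, so the treated fetal livers remained below all maternal ones. With the dam as a replicate block none of the 4 passed (0 genes, 192 at an unadjusted p under 0.05): Fabp1 gave -2.77 (adjusted p = 0.0954), Gsta2 3.09 (0.0954), Ephx1 1.73 (0.0954) and Gstm7 2.17 (adjusted p = 0.0727). Leaving out 1 maternal library gave 2 calls (dam 2129), 3 (dam 2141), 1 (dams 2130, 2131 or 2142) or 0 (dam 2143).

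The fetal values of other strong maternal rises are given beside those of the dams, since for none of them did the difference pass. Dhrs7l1 was at 1.31, 0 and 0.573 CPM in control fetal livers and 0.798, 0.271 and 0.332 CPM in treated ones, beside 6.16 to 14.4 CPM and 198 to 273 CPM in the dams (difference 5.01 ± 1.23, adjusted p = 0.529). Cyp2b2 reached 0, 3.80 and 9.96 CPM in treated fetuses beside 833 to 2340 CPM in their dams (difference 4.14 ± 1.31, adjusted p = 1). For Cyp2b1 the fetal values were 1.31, 0.638 and 0.716 CPM in controls and 2.26, 47.5 and 34.7 CPM after treatment, a log2 fold change of 4.96 ± 0.84 (adjusted p = 0.00405) beside 5.92 in the dams (difference 0.95 ± 1.14, adjusted p = 1). The lowest of these treated values was in the fetal library of dam 2141. For Cyp3a23/3a1 that library had the highest treated fetal value, 18.2 CPM beside 5.56 and 3.32 CPM, so the order differed between genes. Among the fatty acid genes Acot1 had a log2 fold change of 5.78 in the fetus and 4.98 in the dams (difference -0.80 ± 1.29, adjusted p = 1). Ehhadh had the larger fold in the fetus (4.12 beside 2.47 in the dams, difference -1.65 ± 0.61, adjusted p = 1), from 7.02 to 14.3 CPM in controls to 43.1, 189 and 352 CPM. Its treated level in the fetal liver of dam 2143, 352 CPM, was the same as that of the dam's own liver, 352 CPM. In the other treated pairs the fetal liver was lower, at 43.1 beside 197 CPM (dam 2141) and 189 beside 411 CPM (dam 2142). Other genes of smallest p in this comparison were Gsta5 (3.13 ± 0.76, adjusted p = 0.529), Pnpla5 (-3.39 ± 0.75, adjusted p = 0.260), Pctp, Sult4a1, AABR07058124.2 and LOC100910127, a gene listed at 0 in the 3 control dams and at 2.43 to 3.97 CPM in the treated ones.

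**Figure D4:**
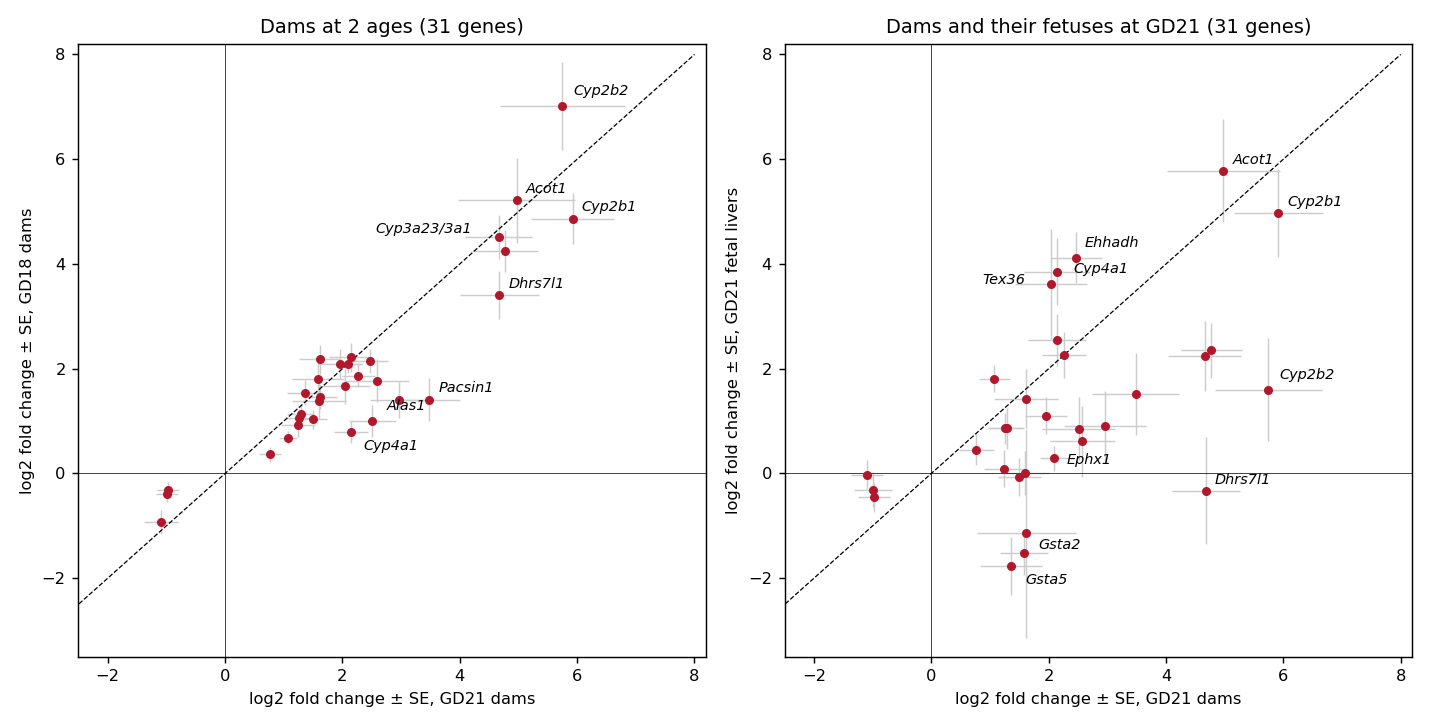
Log2 fold change at 30 mg/kg/d of the 31 genes called in GD21 dams (x) beside that in GD18 dams (y, left) and in GD21 fetal livers (y, right), each with its standard error from the joint fit. The dashed line marks equal responses, and all 31 genes have the same sign on the left and 26 on the right, where Dhrs7l1, Gsta2, Gsta5, Slco1a4 and Ugt1a6 lie below 0.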

How the data were processed

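Liver RNA of 90 rat samples was hybridised to TempO-Seq probes (21119 genes) and sequenced as 50-base single reads, per the labels' protocols. STAR 2.7.3a, Partek and rn6 are named in the submitters' processing notes, with roles not given in the sources used here. The table used holds estimated counts per gene, deposited by the authors, of which 5.91% were not whole in the 15 maternal GD21 libraries; whole counts had been assumed in the plan, and values were rounded. The authors' deposited log2 normalized table was not used. All 15 maternal GD21 libraries were fitted as 5 dose groups (edgeR 4.0.16, R 4.3.3): default low-count filter by group (filterByExpr; 11595 genes not tested), TMM scaling, quasi-likelihood F test, Benjamini-Hochberg adjustment over all tested genes, threshold 0.05, two-sided. Standard errors are the log2 fold change over the root of F; fold changes use a prior count of 0.125. CPM are TMM-scaled within each fit, so values of different fits differ slightly. Differences of responses were tested in joint fits with group means, and a term for the 2 GD18 blocks. Dam and fetal libraries are paired by the dam number in the labels, being of the same animal or litter: over 15 pairs the median correlation of their deviations from group means was 0.052 (-0.038 to 0.12; -0.0017 for other dams), and 6 of 15 dams correlated best with their own fetus.

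Libraries of a group differed well beyond counting noise (chi-square per degree of freedom 23.8 to 64.9 in the 2 groups), so none was counted as a repeat. The fit was tested on simulated data beforehand. Alternatives were RLE factors, no filter, DESeq2 1.42.0, the control and 30 mg/kg/d libraries alone, the dam as a block, other block terms, leaving out each dam, and, added after seeing the data, leaving out the 1 mg/kg/d dam 2132. Genes were named as follows: up to 15 largest rises and falls among calls whose groups did not overlap and whose mean log2 CPM reached 3, called list members of smallest adjusted p, 17 genes whatever their values, and the 5 of smallest p in each direction of the 2 difference tests; the remaining called genes were added. The members, lists and tests were chosen with earlier results of these data known. Promoters are RefSeq's (GRCr8; 24 of 31 called genes have one), and the CYP2B pair was aligned with Biopython 1.88. List entries absent from the table were not analysed here. Of the genes these rules name, 2 are counted but not reported here.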

Additional observations from a re-analysis of the deposited data

Results flagged for a closer look

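Results are given here when the 30 mg/kg/d response of dam and fetus at GD21 differed by the test of the difference itself (edgeR's quasi-likelihood test, 10794 genes). The difference, dam minus fetus on the log2 scale, was 1.80 for Ephx1, 3.09 for Gsta2, 2.22 for Gstm7 and -2.82 for Fabp1, with adjusted p of 0.0355, 0.0371, 0.0181 and 0.00880. For Gsta2 all 3 treated dams (811 to 951 CPM) were above their controls (255 to 337 CPM), and all 3 treated fetal livers (22.9 to 26.9 CPM) below theirs (56.4 to 85.1 CPM). Gstm7 had the same arrangement, with 53.7 to 116 CPM against 27.9 to 45.3 CPM in dams and 6.78 to 8.01 CPM against 12.9 to 14.2 CPM in fetal livers. For Ephx1 the treated fetal livers (50.1 to 62.6 CPM) overlapped their controls (38.8 to 51.3 CPM). Each of the 4 lost the call with the dam as a replicate block.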

How the results depend on the processing

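The call of 31 genes (28 higher, 3 lower) was 31 with RLE factors, 215 (136 and 79) with no filter, 89 (67 and 22) with DESeq2, 34 (29 and 5) from the control and 30 mg/kg/d libraries alone, and 42 (37 and 5) without the 1 mg/kg/d dam 2132; the cause of the shifts was not tested. Of the 31, all were kept with no filter and without dam 2132, 30 by DESeq2 (not Acot1) and 22 in the libraries alone; 6 of the 184 further genes called with no filter were untested before. Leaving out 1 dam of the 6 gave 10 to 55 calls, 10 to 46 higher and 0 to 9 lower; 10 genes were called in every one of these fits and in the 4 other planned settings, and no called gene changed sign in any. The dam minus fetus count of 4 (3 and 1) was 49 (35 and 14) with no filter, 7 (5 and 2) with DESeq2, 1 (1 and 0) in the control and 30 mg/kg/d libraries alone, and 0 (0 and 0) with the dam as a replicate block; leaving out 1 maternal library gave 0 to 3 (0 to 2 higher, 0 to 1 lower). The count for the 2 ages was 0 in every setting. Among named genes Pck1 changed sign at 30 mg/kg/d (-0.0246 to 1.24 over left-out dams). Differences between ages, none past the threshold, changed sign with GD18 block 143 alone for Vnn1 (-0.0793; also -0.00498 with RLE factors and -0.00218 with DESeq2), Cyp3a23/3a1 (-0.125), Fabp1 (-0.0918), Acot2 (0.260), Eci1 (0.264), Gsta2 (0.803) and Slco1a4 (-0.0898), and over left-out dams for Vnn1 (-0.338 to 0.963), Cyp3a23/3a1 (-0.230 to 0.541), Acot2 (-0.401 to 0.640), Eci1 (-0.453 to 0.161), Slco1a4 (-0.0815 to 0.345), Ephx1 (-0.257 to 0.253), Acot1 (-1.15 to 6.62), Pck1 (-1.25 to 0.0132), Tsku (-0.0562 to 0.421), Nqo1 (-0.499 to 0.0147), Cyp2c6v1 (-0.00657 to 0.394), Igfbp1 (-0.357 to 0.939) and Hsdl2 (-0.0327 to 0.403). Differences between dam and fetus did so for Aldh1a1 (-0.00277 with DESeq2; -0.154 to 0.238), Acot1 (0.160 with the dam as a block; -1.68 to 6.17), Acot2 (0.0237 with the block; -0.744 to 0.325), Vnn1 (-0.197 to 1.09), Cyp1a1 (-0.0757 to 0.716) and Igfbp1 (-0.912 to 0.355). With 3 dams a group, a gene that did not pass is not shown to be unchanged.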
